A study of Mus musculus with 18 samples.

Results

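The cytosolic ribosomal protein genes of the mouse were taken as the rows of the deposited gene table whose symbol has the form of a ribosomal protein name (Rpl or Rps, the stalk genes Rplp, or Rpsa) and whose counts summed to at least 180 over the 18 libraries. Of 34745 rows, 82 had such a name and 80 reached that sum. The other two were Rpl3l (32 counts) and Rpl10l (0 counts). Just inside the limit were Rpl23a (262 counts), Rps27 (310) and Rps29 (381). The 80 members held 32 genes of the small (40S) subunit and 48 of the large (60S) subunit, and all 80 were among the 14241 genes left for testing once low counts were removed.

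The libraries were made from bone marrow-derived macrophages (BMDMs), which M-CSF, a growth factor of the monocyte lineage, expands from marrow of the mouse. They came from mice with a global deletion of Zmat1, a zinc finger gene, labelled KO, or from wild-type littermates, labelled WT, on a C57BL/6 background. Cells had received RANKL, the cytokine that drives macrophages to become bone-resorbing osteoclasts, together with M-CSF for 0, 1 or 3 days, and 3 libraries stood in each of the 6 groups of label and day. The labels do not give the age of the mice, for which the study states only a range of weeks. They also do not say whether the libraries of a group came from separate animals. The p-values therefore measure the spread between these libraries, which may be technical.

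The cytosolic ribosome is built from ribosomal RNA and about as many proteins as there are genes in this set, most of them encoded by a single active gene and needed in equal number. The small subunit reads the messenger RNA, and the large subunit joins the amino acids. The mRNAs of these proteins are among the most abundant of a cell, and most begin with a C and a run of pyrimidines, through which the mTOR pathway sets their translation. Each gene has also left many processed pseudogenes, intronless copies of its mRNA elsewhere in the genome, so a short read from such an mRNA can match several places.

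Total counts ran from 13789775 to 17559958 per library. Sample titles were written in 2 styles, and the 5 titles with a double hyphen (1 each at WT day 0, WT day 1 and KO day 0, and 2 at KO day 1) marked libraries that differed from the other 13 in the members' counts, as given below. The labels do not say what the styles mean, and no day 3 library had a double hyphen. Zmat1, the gene named in the labels, was not lower in the libraries labelled KO, at 3.49, 7.61 and 4.3 CPM (counts scaled by the size of the library, here with TMM factors) on day 0 against 7.5, 2.48 and 3.07 in those labelled WT (edgeR quasi-likelihood test, adjusted p = 0.93), so the counts over the whole gene do not check the label and the libraries are called by it. The 8 macrophage markers, all detected, summed to between 6721 and 13901 CPM on days 0 and 1 and between 3040.3 and 4316 on day 3. The 10 osteoclast markers, 1 of which was at 0 in each day 0 and day 1 group, ran from 224 to 988 CPM on day 0 and from 8293 to 23380.5 on day 3.

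The members differed from each other far more than they differed between libraries, where the ratio of highest to lowest library had a median of 2.15. Levels between genes are given as CPM per kilobase (kb) of 1 representative transcript (GENCODE M21, GRCm38), averaged over the 18 libraries. They cover the 79 members with a protein-coding transcript, which are all but Rps4l. Rplp1, a protein of the flexible stalk that recruits elongation factors, was the highest at 1734 CPM per kb, followed by Rps15 at 1128, Rpl41, the smallest ribosomal protein, at 1046, and Rplp0, the base of the stalk, at 914. Rps23 was the lowest at 1.57 CPM per kb, with Rpl23a at 1.64, Rpl17 at 2.53 and Rps13 at 2.74. The median was 150.0 CPM per kb over 31 small subunit members and 88.6 over 48 large subunit members, and the highest member stood 1108 times above the lowest. These levels depend on the transcript taken. That of Rps15a has 5179 bases, of which 390 are coding, and its 69581 counts came to 48.3 CPM per kb. Of the deposited FPKM values, which divide a count by a gene length and the library total, high means were those of Rplp1 (1801.5), Rpl8 (826), Rpl4 (713) and Rps15 (687). The 5 lowest FPKM means were those of Rpl11 (0.719), Rpl23a (0.687), Rps27 (0.398), Rpl9 (0.218) and Rps13 (0.197).

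Low members tended to be those whose transcript shares stretches with transcripts of other genes. For each member the share of its 75-base stretches that also occur in a transcript of another gene was counted (75 bases is a length chosen here). Genes that overlap the member's own locus were not left out, such as Wdr38 for Rpl35 (54.9% of its stretches). The median share was 43.7%, 3 members shared no stretch, and 63 of 79 shared at least 20%. Among the 20 members lowest per kb, 13 shared at least 50% of their stretches, against 4 of the 20 highest. Rps3, a small subunit protein with no shared stretch, stood at 324 CPM per kb, while Rps27, with 98.5% shared, stood at 3.33. These are descriptions of 1 table, in which all points share the same libraries.

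**Figure D1:**
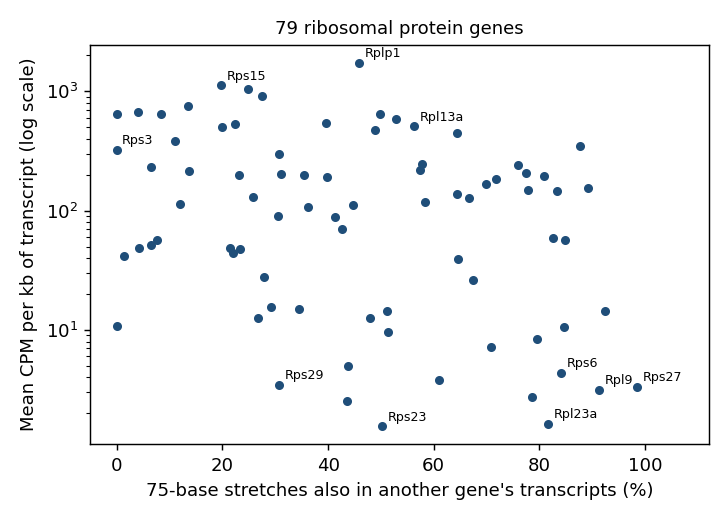
Each point is 1 of 79 ribosomal protein genes, with the share of its 75-base transcript stretches found in another gene's transcripts on the x axis (%) and its mean CPM per kb of transcript over 18 libraries on a log y axis. Rps27, Rpl9, Rpl23a and Rps6 sit low on the right, between 1.64 and 4.4 CPM per kb, and Rps3 (324) sits high at 0% shared.

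For 29 members the table held another row whose transcripts hold at least 20% of the member's stretches, and 11 of the 29 were outnumbered by such rows. Of these 40 rows 22 are annotated as processed pseudogenes, and some are other genes, such as Trappc4 beside Rps25 and Flt3l beside Rpl13a. Together the 40 rows held 921363 counts beside 4592483 in the 80 members. Rpl23a, which lies at the exit of the peptide tunnel, had 262 counts against 48076 in the row Rpl23a-ps3, and Rpl9 had 642 against 49441 in Rpl9-ps6. Rps27 had 310 against 42822 in Rps27rt, and Rpl27 had 3038 against 40305 in Rpl27-ps3. The member itself held 4.73% of the joint counts for Rpl5, a 60S protein that carries 5S ribosomal RNA, 2.68% for its partner Rpl11, and 3.62% for Rpl12.

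The sequences of 3 such pairs show how little separates a member from its copy. Over the 252 coding bases of Rps27 (chr3:90212522-90213651, minus strand) the transcript of Rps27rt (chr9:114982371-114982740, minus strand) had 0 differing bases, so the first 60 coding bases are the same in both. Rpl9 (chr5:65388364-65391444, minus strand) and Rpl9-ps6 (chr19:32465885-32466575, minus strand) differed at 1 of 576 coding bases. Rpl23a (chr11:78180932-78183584, minus strand) and Rpl23a-ps3 (chr14:34170655-34171168, plus strand) differed at 1 of 468. Each line gives 60 transcript bases, 5′ to 3′ (GENCODE M21, GRCm38), and capitals mark the base that differs within a pair.
Rps27: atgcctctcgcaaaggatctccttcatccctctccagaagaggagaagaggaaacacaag
Rps27rt: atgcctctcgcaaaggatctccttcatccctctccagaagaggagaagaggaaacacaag
Rpl9: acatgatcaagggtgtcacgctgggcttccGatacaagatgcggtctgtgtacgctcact
Rpl9-ps6: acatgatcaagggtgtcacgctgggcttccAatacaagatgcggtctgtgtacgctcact
Rpl23a: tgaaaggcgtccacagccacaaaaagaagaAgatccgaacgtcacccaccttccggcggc
Rpl23a-ps3: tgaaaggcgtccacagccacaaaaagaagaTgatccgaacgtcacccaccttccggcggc
The Rpl9 stretch covers coding bases 236 to 295 and the Rpl23a stretch coding bases 86 to 145, counted from 1 at the start codon. Where the counting program could place a read in either row, a change in a low member and a change in the share of reads given to it cannot be told apart, and such members are uncertain.

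The members together took a larger share of all counts on day 3. In the libraries labelled WT the 80 genes held 1.23, 1.72 and 1.43% of all counts on day 0, 0.953, 1.82 and 1.83% on day 1 and 2.38, 2.07 and 2.42% on day 3. In those labelled KO the shares were 1.55, 1.35 and 1.69%, then 1.16, 1.12 and 1.57%, then 2.25, 2.2 and 1.91%. Every day 3 library was above every day 0 and day 1 library, and the labels overlapped on each day. The means were 1.46% ± 0.246 (SD, n = 3), 1.54% ± 0.504 and 2.29% ± 0.193 in the WT label. They were 1.53% ± 0.173, 1.28% ± 0.249 and 2.12% ± 0.184 in the KO label. The 95% Wilson intervals, which cover counting error only, reached at most 0.00783 percentage points to either side, far less than the spread between libraries. Small subunit genes held between 42.3% and 45.2% of the members' counts in every library. In bulk libraries, fewer cells of a type and less RNA per cell cannot be told apart.

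**Figure D2:**
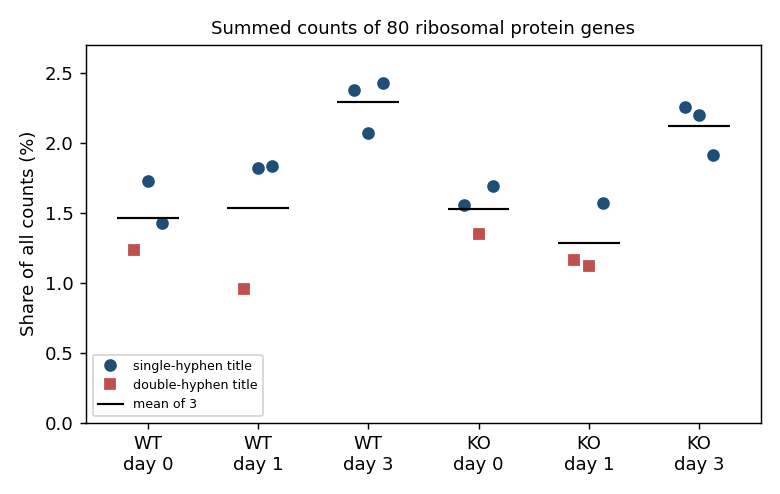
Share of all counts of a library held by the 80 ribosomal protein genes (y axis, %), for 3 libraries in each of 6 groups of label and day, with bars at the group means and squares for double-hyphen titles. The 6 day 3 libraries lie between 1.91% and 2.42%, and the 5 double-hyphen libraries lie between 0.953% and 1.35%, below every single-hyphen library.

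The same shares ordered the libraries by title style. On day 0 the double-hyphen libraries held 1.23% and 1.35%, and the 4 single-hyphen libraries held 1.43% to 1.72%. On day 1 the 3 double-hyphen libraries held 0.953% to 1.16%, and the 3 single-hyphen libraries held 1.57% to 1.83%. With the style as a term beside the 6 groups, 33 of 80 members were called lower and 1 higher in double-hyphen libraries (adjusted p under 0.05), where 13.3% of all genes tested were lower and 9.94% higher. The median log2 difference was -0.33 over the members and -0.01 over all genes.

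Among members, Rpl39l, a paralog of the tunnel protein Rpl39, had the lowest difference between the styles (log2 -1.77, SE 0.38, adjusted p = 0.00594). Rps12, a small subunit protein, had the smallest adjusted p (7.2e-05), at 20.1, 14, 17.3, 17 and 12.9 CPM in the 5 double-hyphen libraries and at 31.2 to 51 CPM in the other 13. The 1 member called higher was Rpl35a, a large subunit protein, at 54.3, 47.8, 71.4, 60.2 and 68.5 CPM against 28 to 52.2. Rps12 and Rpl35a were picked here after their values were seen. Other groups moved with the style too: all 4 tested erythroid genes, 7 of 8 cell cycle genes and 6 of 8 stromal genes were called lower in double-hyphen libraries. The erythroid list of 6 genes summed to at most 0.33 CPM in 5 double-hyphen libraries and to between 15.6 and 23.8 CPM in the other 13. The part of these differences in the members' result was not tested. Each comparison between days or labels is therefore also given from the 13 single-hyphen libraries alone, which was decided once these values were known.

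In the libraries labelled WT, 16 of 80 members rose between day 0 and day 3 of RANKL and 0 fell. Over all genes tested 23.7% were called higher and 26.5% lower, so the share of members that rose (20%) was near the background and the share that fell (0%) was below it. The median log2 fold change was 0.30 over the members, with 72 positive, and -0.03 over all genes. The range ran from -0.36 (Rps28) to 1.94 (Rpl39l). The 3 day 3 libraries lay above the 3 day 0 libraries for 31 members, and below them for 0, where 31.5% and 31% of all genes did so. Of 32 small subunit members 5 were called higher (median 0.31) and of 48 large subunit members 11 (median 0.29), both no more often than all genes.

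Rpl39l stood at 0.412, 1.47 and 6.36 CPM on day 0 and at 10.9, 12.3 and 8.75 CPM on day 3 in the WT label. The day 0 libraries spread widely and none reached the lowest of day 3 (log2 fold change 1.94, SE 0.74, adjusted p = 0.0403). The lowest of them, with 5 counts, was the double-hyphen library, and Rpl39l was not called without it. The call held in 13 of 20 alternative fits. Rpl27, a large subunit protein, went from 1.98, 4.02 and 8.58 CPM to 16, 17.4 and 15.8 CPM. Its day 3 values were close together and the groups did not overlap (log2 1.75, SE 0.44, adjusted p = 0.00487). Summed with the counts of Rpl27-ps3, it changed by 0.60 on the log2 scale and was not called (adjusted p = 0.0746). Rpl23a went from 0.577, 0.619 and 0.429 CPM to 1.86, 0.941 and 1.57 CPM. That is a rise of 1.42 (SE 0.46, adjusted p = 0.0203) from 6 to 8 counts per day 0 library, and with Rpl23a-ps3 counted in, the rise was 0.56 (adjusted p = 0.0065).

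Rps6, the small subunit protein that S6 kinases phosphorylate downstream of mTOR, stood at 1.81, 1.63 and 3.36 CPM on day 0 and 3.46, 6.82 and 6.34 CPM on day 3. The lowest day 3 library was barely above the highest of day 0 (log2 1.28, SE 0.40, adjusted p = 0.0156). The day 0 libraries held 22, 21 and 47 counts, and Rps6 was not called without the double-hyphen one. Of its stretches 84.1% occur in transcripts of other genes. No row at another locus held at least 20% of them, so no sum could be checked. Rps4l, an intronless relative of Rps4x on chromosome 6 (148354656 to 148355598, plus strand, GRCm38) that GENCODE M21 annotates as a transcribed processed pseudogene, went from 9.23, 6.42 and 14.4 CPM to 21.2, 25.3 and 19.2 CPM, with no overlap (log2 1.12, SE 0.35, adjusted p = 0.0169). Rpl15, a large subunit protein, went from 17.1, 23.5 and 26.1 CPM to 43.3, 40.4 and 45.8 CPM, again without overlap (log2 0.95, SE 0.26, adjusted p = 0.00758).

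The other 10 members called higher included Rpl27a, Rpl12, Rpl13, Rpl4, Rpl8, Rplp0, Rps27l, Rpl13a and Rps3, with log2 fold changes from 0.38 to 0.82, and none of the 16 had overlapping groups. With the counts of rows that share stretches summed in, 13 of the 16 kept their call. Rpl12 was among those lost (log2 0.55, adjusted p = 0.0694, against 0.79 alone). Rpl5 (log2 0.43, adjusted p = 0.0122) and Rps7 (log2 0.31, adjusted p = 0.0491) were called only with these sums. Rpl4, one of the longest proteins of the large subunit and among the most counted members, rose from 801, 1028 and 783 CPM to 1327, 1199.9 and 1424 CPM, 1.51-fold. With 1 of the libraries left out, 6 to 19 members were called. Over all genes 18.4% to 27.3% were then called higher and 21% to 25.3% lower. The count of members fell to 6 without WT day 0 library 1, the double-hyphen one, where 18.8% of all genes were called higher. It fell to 9 without WT day 3 library 1 or WT day 3 library 3, and the members' median rose to 0.48 without WT day 0 library 2. Among the single-hyphen libraries alone 21 members rose and 0 fell (median 0.26, all genes 0.04), where 24.1% of all genes were called higher and 22% lower, and 15 of the 16 kept their call. A fit with title style as an extra term gave a median of 0.17 (all genes -0.01).

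In the libraries labelled KO, 5 of 80 members rose and 1 fell, where 20.2% of all genes tested were called higher and 22.3% lower. The share of members called was below the background in both directions. The median log2 fold change was 0.17 over the members, with 62 positive, and -0.01 over all genes. Day 3 lay above day 0 without overlap for 21 members and below it for 5, where 29.4% of all genes lay above and 29.4% below. All 5 that rose (Rpl15, Rpl4, Rplp0, Rps27l and Rps4l) were also among the 16 of the WT label, which is 100% of the one list and 31.2% of the other. The comparisons share no library, but both took their spread from the same fit, so the lists are not independent. The matching overlap over all genes is not given here.

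Rps4l rose the most of these, from 16.8, 15.2 and 25.6 CPM to 39.6, 41.8 and 44.4 CPM without overlap (log2 1.13, SE 0.35, adjusted p = 0.0185). Rpl15 went from 24.8, 20.2 and 29 CPM to 40.3, 38.2 and 39.5 CPM (log2 0.67, SE 0.26, adjusted p = 0.0484). Rps27l, a paralog of Rps27 known as a target of p53, went from 49.3, 61 and 43.8 CPM to 69.9, 71 and 69.4 CPM, and its day 3 values were nearly equal (log2 0.45, SE 0.15, adjusted p = 0.0301). The 1 member that fell was Rpl10, which helps the subunits join, from 51.5, 69.6 and 52.1 CPM to 47.6, 42.4 and 41.4 CPM (log2 -0.40, SE 0.13, adjusted p = 0.0251). Its log2 difference shrank to -0.09 when libraries were scaled by total counts, and to -0.19 among single-hyphen libraries, and was called in neither.

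The KO calls were lost in part with any library removed, while all 6 members kept their sign. Leaving out any 1 of its 6 day 0 and day 3 libraries (KO libraries 1, 2 and 3 on each day) left between 1 and 3 members called. Over all genes 14.1% to 16.5% were then called higher and 16.5% to 19.7% lower. The members' median was 0.26 without KO day 0 library 3, and Rps4l stood at log2 1.01 to 1.42. Without the 3 KO libraries numbered 3 together 2 members were called (median 0.30), where 13.2% of all genes were called higher and 16% lower. With the replicate number within each label as a block, 3 rose and 1 fell, where 20% of all genes were called higher and 22.3% lower. Rpl4 and Rplp0 were no longer called in that fit. With the counts of rows that share stretches summed in, all 6 kept their call, though of these only Rpl10 and Rpl15 had such rows. Rpl23a was then called higher as well (log2 0.47, edgeR adjusted p = 0.0209). Among the single-hyphen libraries 7 rose and 0 fell (median 0.15, all genes 0.09), where 21.4% of all genes were called higher and 18.4% lower, and with title style as an extra term the median was 0.01 (all genes 0.00).

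**Figure D3:**
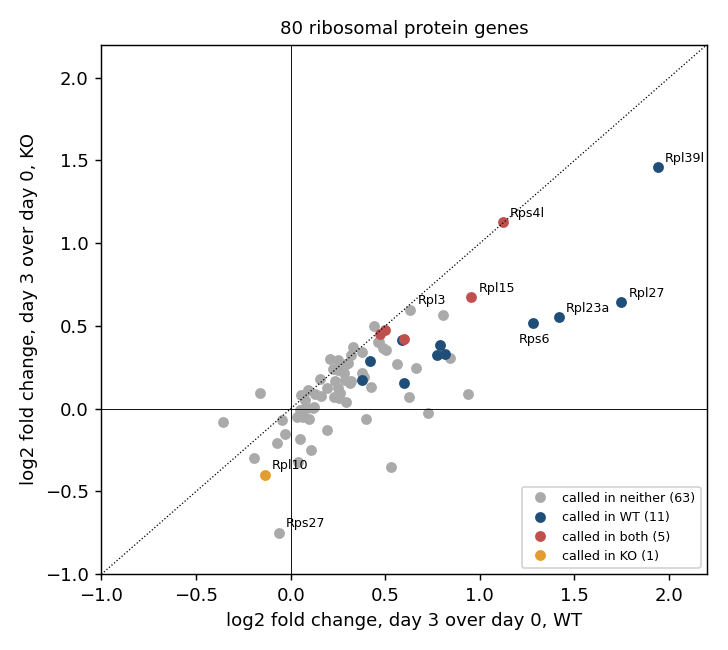
Log2 fold change from day 0 to day 3 for each of the 80 ribosomal protein genes in the WT label (x axis) and the KO label (y axis), coloured by the call at an adjusted p under 0.05, with a dotted line of equal change. Most points lie in the upper right and below the line, 5 genes are called in both labels, and 63 are called in neither.

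The change from day 0 to day 3 was then compared between the labels directly. For the interaction of label and day, 0 of 80 members and 0% of all genes tested were called by edgeR, and 0 members had an unadjusted p under 0.05 (5.4% of all genes). DESeq2 called 0 members, where it called 0.00939% of all genes higher and 0.0047% lower. The median interaction was -0.13 over the members and 0.02 over all genes (single-hyphen libraries, -0.09 and 0.04, with 0 members called), and a difference between the labels in the rise is not shown. Rpl27 had the lowest interaction (log2 -1.10, SE 0.61, adjusted p = 0.921).

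Of the 3 stalk genes only Rplp0 was called. It went from 1101 ± 81 CPM (SD, n = 3) to 1558 ± 127 CPM in the WT label and from 1088 ± 37.3 to 1516 ± 155 CPM in the KO label, and passed the test in both (adjusted p = 0.0232 and 0.033). Its stalk partners Rplp1 and Rplp2 had log2 fold changes of 0.37 and 0.29 in the WT label and 0.22 and 0.18 in the KO label, and neither was called. Rpsa, the small subunit protein also known as the laminin receptor, stood at 795, 1076 and 921 CPM on day 0 and 1250.4, 1262 and 1402 CPM on day 3 in the WT label. Those groups did not overlap, yet its adjusted p was 0.0782. Rps3, at the mRNA entry of the small subunit, changed by 0.38 and 0.17 (adjusted p = 0.0499 and 0.378). Rps19, the gene most often mutated in Diamond-Blackfan anaemia, changed by 0.30 and 0.28, and was called in neither label.

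Among large subunit members with known roles outside the ribosome, Rpl13a, a component of an interferon-induced translation block, stood at 425, 549 and 471 CPM and then 643, 581 and 706 CPM in the WT label (log2 0.42, adjusted p = 0.0176). In the KO label it changed by 0.29 (adjusted p = 0.0935). Rpl5 and Rpl11, which bind Mdm2 when ribosome assembly fails, had log2 fold changes of 0.29 and 0.72 in the WT label and 0.27 and -0.03 in the KO label, without a call. With the rows that share stretches summed in, Rpl5 changed by 0.43 in the WT label and was called (edgeR adjusted p = 0.0122). In the KO label it then changed by 0.33 (adjusted p = 0.0505). Rpl11, summed in the same way, changed by 0.21 and -0.12 without a call. Rpl38, known for its part in the translation of Hox mRNAs, stood at 49.4 ± 4.76, 54 ± 6.45 and 47.9 ± 14.4 CPM on days 0, 1 and 3 of the WT label.

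The set held both genes of 4 paralog pairs, and in 3 of them 1 gene was called in the WT label and the other was not. The difference within a pair was not tested. Rps4x, the X-linked gene, stood at 592 ± 79.6 CPM on day 0 and 620.0 ± 19.5 CPM on day 3 in the WT label (log2 0.07, adjusted p = 0.757), against 1.12 for Rps4l. Shared stretches of Rps4l were not counted and no row was summed with it, so reads placed in either row were not checked. Rpl39 changed by 0.42 (adjusted p = 0.0903), against 1.94 for Rpl39l, whose highest library was 63.2 times its lowest, the widest range of the 80. Rps27 changed by -0.06 and -0.75 in the 2 labels and Rps27l by 0.47 and 0.45. The Rps27 row holds only 310 counts over all libraries. Summed with Rps27rt, Rps27 changed by 0.01 and -0.13, without a call. Rpl36a, whose row is sparse, changed by 0.84 (adjusted p = 0.167) and Rpl36al by 0.32 (adjusted p = 0.114) in the WT label.

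Between the labels on the same day, 0 of 80 members were called by edgeR on day 0, on day 1 or on day 3, where 0.119%, 0.112% and 0.14% of all genes were. The DESeq2 Wald test also called 0 on each day. It called 0.174% of all genes higher and 0.206% lower on day 0, 0.333% and 0.138% on day 1, and 1.1% and 0.303% on day 3. In edgeR 2, 6 and 1 members had an unadjusted p under 0.05, where 7.59%, 7.9% and 10.7% of all genes did. Median log2 differences, KO over WT, were 0.08, -0.22 and -0.07, and among single-hyphen libraries they were 0.01, -0.24 and -0.09 with 0 members called. On day 3 the KO libraries lay below the WT libraries for 12 members and above them for 4, where 13.3% and 15.9% of all genes did so. The 4 were Rps27l, Rps28, Rpl39l and Rps4l, which are named here after their values were seen.

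Rps4l stood higher in the KO label on day 0, at 16.8, 15.2 and 25.6 CPM against 9.23, 6.42 and 14.4, and on day 3, at 39.6, 41.8 and 44.4 CPM against 21.2, 25.3 and 19.2, with no overlap on either day. On day 1 the labels overlapped, at 11.2, 18.8 and 31.2 CPM against 9, 15.1 and 16. The log2 difference on day 3 was 0.94 (SE 0.35, edgeR adjusted p = 0.365), and it was called only when the 6 libraries of day 3 were fitted alone (adjusted p = 0.0356). Rpl39l stood at 14.6, 15.7 and 26.1 CPM in the KO label and 10.9, 12.3 and 8.75 CPM in the WT label on day 3 (log2 0.81, SE 0.69, adjusted p = 0.704).

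Rpl3, which helps form the peptidyl transferase centre of the large subunit and lies on chromosome 15 (80077794 to 80091868, minus strand, GRCm38), was set apart by 3 libraries. In the KO label it stood at 197, 167 and 43.5 CPM on day 0, 156, 178 and 43.4 CPM on day 1 and 285, 287 and 44.1 CPM on day 3. The low value on each day was that of the library numbered 3, with 598 to 779 counts. In the WT label it stood at 159, 240.2 and 195, then 141, 260.4 and 257, then 317, 278 and 325 CPM. The lowest of the other 15 libraries was 3.21 times the highest of the 3. No other member had all 3 of these libraries below 0.5 times every other library, or above 2 times, and over all 14241 genes 18 lay that low, 12 of them on chromosome 4, and 22 that high. For libraries numbered 1 or 2 of the KO label and 2 of the WT label, 0 or 1 gene lay that low and 0 or 1 that high. The labels do not say what a number shares across days. Rpl3 was not called on day 3 (log2 0.63, adjusted p = 0.417 in the WT label, where its groups did not overlap), and it was called there in a fit without the 3 KO libraries numbered 3 (log2 0.66).

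**Figure D4:**
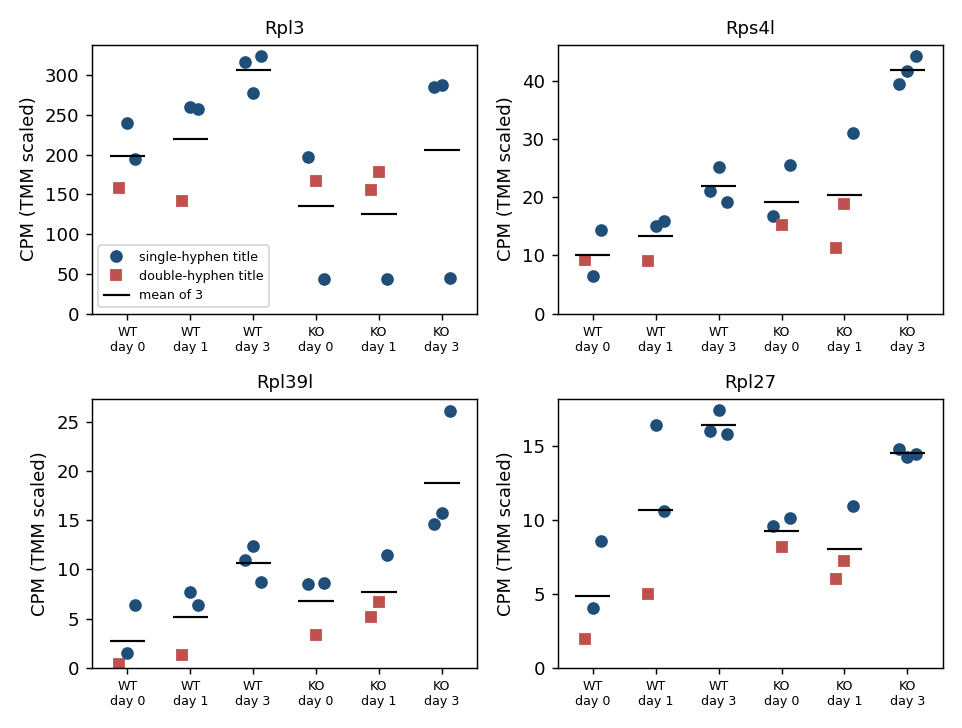
CPM (TMM-scaled, y axes from 0) of Rpl3, Rps4l, Rpl39l and Rpl27 in 3 libraries of each of the 6 groups, with bars at the group means and squares for double-hyphen titles. Rpl3 sits between 43.4 and 44.1 CPM in 1 KO library of each day and above 141 CPM elsewhere, and Rps4l is highest in the KO day 3 group, between 39.6 and 44.4 CPM.

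After 1 day of RANKL no member was called by edgeR. In the WT label 0 of 80 were called, where 2.35% of all genes were, and the median was 0.04. Among single-hyphen libraries the WT median was 0.14 (all genes -0.03) and 1 member, Rps27a, was called higher, where 4.5% of all genes were. In the KO label 0 of 80 were called, where 0.0211% of all genes were, and the median was -0.32 with 75 members negative. The DESeq2 Wald test called 1 member in the WT label and 2 in the KO label (Rps24 among them), all lower, where that test called 5.2% of all genes higher and 3.66% lower in the WT label, and 0.603% and 0.582% in the KO label. By edgeR 4 and 20 members had an unadjusted p under 0.05, with none of the 20 higher, where 20.5% and 10.2% of all genes did. In the KO label 28 members had all day 1 libraries below all day 0 libraries, where 10.6% of all genes did. That group of day 1 libraries holds 2 double-hyphen titles and the day 0 group holds 1. With style as an extra term the KO median was -0.20, and among single-hyphen libraries, which leave 1 KO day 1 library that is assumed to vary like the other groups, it was -0.13. Rps24, a small subunit protein, stood at 362, 435 and 386 CPM on day 0 and 311, 288 and 295 CPM on day 1 in the KO label (log2 -0.40, SE 0.11, edgeR adjusted p = 0.253). It is named here after its values were seen. WT calls by edgeR appeared when 1 library was left out: 2 members, Rpl27 among them, without WT day 0 library 3, and Rpl27 and Rps27l without the double-hyphen WT day 1 library 1. Over all genes 4.84% were called higher and 2.51% lower without the former, and 7.39% and 5.02% without the latter. Between labels on day 1, Rpl31 was called without that double-hyphen library, where 0.336% of all genes were called higher and 0.563% lower.

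The scale set for the libraries changed how many members were called on day 3, and not the direction of their median. Scaling by total counts, in place of TMM, moved the median of all genes in the WT label from -0.03 to 0.33. TMM factors were 1.09 to 1.2 on day 3 and 0.855 to 0.968 on day 0. Under total counts 36 members rose and 0 fell in the WT label (median 0.66), where 36.2% of all genes were called higher and 15.6% lower. In the KO label 10 rose and 0 fell (median 0.46, all genes 0.29), where 30% were called higher and 13.8% lower. The members' median stood above that of all genes under TMM and under total counts in both labels. With DESeq2 size factors 20 rose in the WT label (25.3% of all genes) and 5 rose and 1 fell in the KO label (22.2% and 20.8%). With TMM factors computed without the members 18 rose (24.9%), and 5 rose and 1 fell (21.3% and 21.5%). All 16 members called in the WT label kept their call in these 3 scalings. For the title style, total counts gave 58 members lower and 1 higher (median -0.54, all genes -0.23), where 28.2% of all genes were lower and 3.56% higher.

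**Figure D5:**
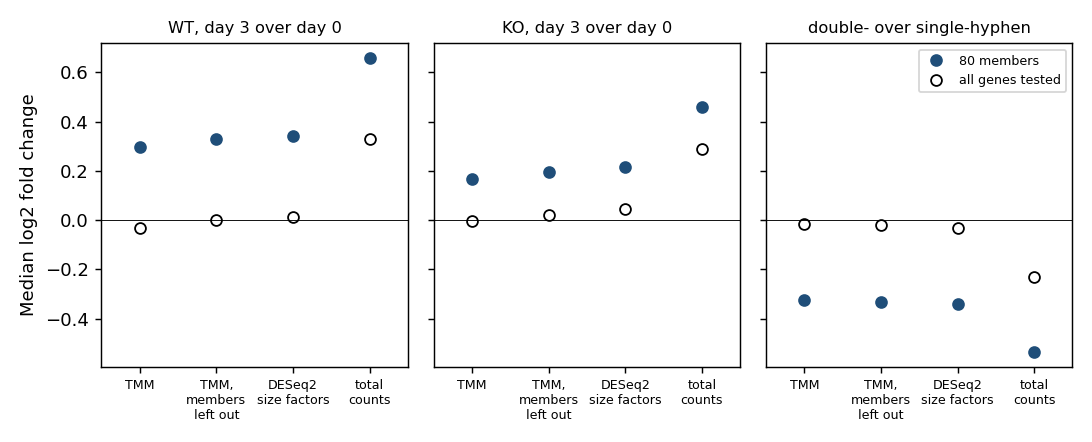
Median log2 fold change (y axis) of the 80 ribosomal protein genes (filled) and of all genes tested (open) under 4 library scalings, for day 3 over day 0 in each label and for double- over single-hyphen titles. Filled points stay above open ones in both day 3 panels, with the highest pair at total counts (0.66 against 0.33 in the WT label), and below them for the title style.

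Other genes of the translation machinery were counted in the same fit. Of 74 tested ribosome assembly factors 57 rose and 1 fell by day 3 in the WT label (median 0.78), and 24 rose and 2 fell in the KO label (median 0.38). On the log2 scale Ncl, a nucleolar protein of early assembly, rose by 0.67 in the WT label (adjusted p = 0.00453) and changed by 0.27 in the KO label (adjusted p = 0.201). Npm1, which escorts ribosomal subunits, rose by 0.62 (adjusted p = 0.00955) and changed by 0.41 (adjusted p = 0.0712). Myc, a transcription factor that drives ribosome genes, rose in both labels (log2 2.49 and 1.34, adjusted p = 0.00106 and 0.0363). Of 77 mitochondrial ribosomal protein genes 38 rose and 3 fell in the WT label, and 23 rose and 2 fell in the KO label. Of 38 initiation factors 21 rose and 2 fell, then 11 rose and 4 fell. Of 14 RNA polymerase I genes 6 rose and 2 fell, then 4 rose and 1 fell. These counts have the same background as the members, and no difference between the lists was tested.

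Elongation factors split. Of 10 tested, 4 rose in the WT label, and 3 rose and 1 fell in the KO label, while Eef1a1 and Eef2, which carry the elongation cycle, changed in log2 by 0.03 and 0.10 in the WT label and 0.05 and 0.18 in the KO label without a call. Among translation regulators 4 of 12 rose and 6 fell in the WT label, and 1 rose and 4 fell in the KO label. Of the 6 tested ribosomal proteins whose symbols lie outside the name form, Gnb2l1 (now Rack1) rose by 0.78 and Rps3a1 by 0.35 in the WT label (adjusted p = 0.0212 and 0.017). In the KO label Rps3a1 and Rpl22l1 rose (log2 0.29 and 0.84, adjusted p = 0.0479 and 0.0365), and Fau, which encodes a ubiquitin-like fusion of Rps30, fell by 0.37 (adjusted p = 0.0275). Of the 11 tested rows named as ribosomal protein pseudogenes, 1 rose in each label and 0 fell.

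Cell type markers moved along the same days. The 8 stromal or osteoblast markers, all tested, summed to between 102 and 4912 CPM on day 0 and between 11372 and 30061 CPM on day 3, with 6 called higher in the WT label and 7 in the KO label. On day 3 the stromal sum was 11372 to 14696 CPM in the WT label and 20299 to 30061 CPM in the KO label. The 8 neutrophil markers ran from 682 to 12097 CPM on day 0 and from 37.9 to 1179 CPM on day 3, with all 8 called lower in both labels. On day 0 that sum was 682 to 3106 CPM in the WT label and 3743 to 12097 CPM in the KO label. The 6 B cell markers ran from 296 to 406 CPM and then from 10.2 to 61.4 CPM. T and NK cell markers stayed at or under 9.25 CPM in sum, and the 8 cell cycle genes ran from 258 to 605 CPM on day 0 and from 541 to 899 CPM on day 3. The part of these shifts in the members' results was not tested.

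The promoters of the members share features that the choice by name did not use. RefSeq promoter sequences (GRCm38.p6, 250 bases before to 50 after the start) were found for 59 members, taking the entry nearest to the start of the representative transcript, and were set beside 1 entry for each of 27025 genes. The motif CCGGAAG, on either strand, was in 24 of 59 members (40.7%) and in 9.12% of all promoters. TCTCGCG was in 13 (22%) against 2.72%, ATGGCGG in 9 (15.3%) against 4.19%, and GGGCGG in 35 (59.3%) against 35.9%. The E box CACGTG, a letter sequence that Myc can bind, was in 5 (8.47%) against 7.24%, and TATAAA was in 5 (8.47%) against 14.2%. The 6 motifs do not contain one another, and a match is a description and not a site.

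A C followed by at least 4 C or T bases began within 10 bases of the start in 31 of 59 members (52.5%) and in 30.8% of all promoters. Starts in the promoter entries lay a median of 35 bases from those of the GENCODE transcripts, and 17 of 59 lay within 10 bases, so the run can be missed or misplaced. Windows of 30 bases around the start are shown for 4 members called higher on day 3 in the WT label (Rps6, Rpl15, Rps27l and Rpl39l) and for Rpl38, which was called in neither label, with the pyrimidine run in capitals. They lie at chr4:86857353-86857382 (minus strand), chr14:18270972-18271001 (minus), chr9:66946071-66946100 (plus), chr16:10170213-10170242 (plus) and chr11:114668565-114668594 (plus), and each is read 5′ to 3′ on its own strand.
Rps6: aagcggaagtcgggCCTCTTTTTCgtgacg
Rpl15: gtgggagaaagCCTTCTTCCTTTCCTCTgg
Rps27l: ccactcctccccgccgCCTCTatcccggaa
Rpl39l: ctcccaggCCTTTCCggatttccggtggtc
Rpl38: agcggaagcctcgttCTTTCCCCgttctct
These 5 were chosen among the windows that hold such a run, so they show its form and compare nothing.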

How the data were processed

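RNA was extracted with a column kit and libraries were made with a SMARTer mRNA kit. The deposited data are a single gene table that pairs counts with FPKM for all 18 libraries, and the authors made it with StringTie on GRCm38 (GRCm38.p4, mm10) according to the submitters' processing notes. The aligner, the counting settings, the read length and the use of strand are not given in the sources used here. Deposited counts were analysed as they stand. Each deposited FPKM was a count divided by the library total and by 1 length per gene, so the FPKM columns hold no independent measurement. No comparison computed by the authors was used.

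Counts were fitted with edgeR 4.0.16 in R 4.3.3 (filterByExpr at its defaults, TMM scaling, glmQLFit and glmQLFTest, 6 groups, all 18 libraries), with Benjamini-Hochberg adjustment over the 14241 genes of each comparison and a call at an adjusted p under 0.05. Tests were 2-sided. CPM values use TMM-scaled library sizes, and standard errors come from the F statistic. The fit was tested on simulated counts. Total counts of 13789775 to 17559958 set the precision, and intervals cover counting error only. The members, lists and tests were chosen with earlier results of these data known. Named members were up to 5 called per direction on day 3 in each label (largest change, no overlap, mean above 1 CPM), members called between labels, and fixed sets (stalk genes, paralog pairs, genes with known other roles, the ends of the FPKM order), and the values of some are not reported here. Alternatives were library scalings, filters, DESeq2 1.42.0, the libraries in the fit, title style, the replicate number, sums with rows that share at least 20% of a member's stretches and libraries left out. The single-hyphen fits, those without the KO libraries numbered 3 and those sums were chosen after seeing the data.

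Pairing by replicate number was examined through correlations of each library's deviations from its group mean. Between days 0 and 3 all 3 KO pairs correlated by 0.13 to 0.398, and the WT pairs by -0.023 to 0.111. Between days 0 and 1 the KO pairs were at 0.0536, 0.501 and 0.598, and the lowest joined a single-hyphen with a double-hyphen library. The WT pairs were at 0.604, -0.464 and 0.138. The first of these lay within the double-hyphen style and the second crossed styles. The main fit took no pairing in either label, so the KO day 3 calls come from an unpaired comparison. The number entered only alternative fits, as a block over all libraries or within each label.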

Additional observations from a re-analysis of the deposited data

How the results depend on the processing

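The members' median kept its direction in all 9 comparisons under every alternative other than leaving out 1 library. Total counts moved the members called to 36 (WT day 3), 10 (KO day 3) and 59 (title style), and the day 3 medians to 0.66 and 0.46. On KO day 3, 2 members were called without a filter and 2 without the KO libraries numbered 3 (median 0.30), 10 in a fit on only the groups compared, and the median was 0.011 with title style as an extra term. Over all genes 12.7% were called higher and 12.9% lower without a filter, and 22.9% and 23.1% in the fit on only the groups compared. Where no member was called otherwise, DESeq2 called 1 on WT day 1 and 2 on KO day 1, the style term 1 and the single-hyphen libraries 1 on WT day 1, and the fit on day 3 alone 1 between labels. The cause of these differences was not tested. Leaving out 1 library gave 6 to 19 (WT day 3), 1 to 3 (KO day 3), 0 to 2 (WT day 1), 0 to 1 (labels, day 1) and 24 to 38 members (title style), and day 3 medians of 0.23 to 0.48 and 0.12 to 0.26. The matching shares of all genes on day 3 stand with those results above. For the title style 7.67% to 16.3% of all genes were then called lower and 5.55% to 11.9% higher. The WT day 1 median alone turned its sign: it was -0.05 with WT day 0 library 1 removed, -0.06 with the single-hyphen WT day 1 library 1 removed and -0.08 with WT day 1 library 2 removed. With the number as an additive replicate block 18 and 5 members were called on day 3, and with the block within each label 18 and 4, with 0 in the other comparisons. Over all genes the additive block called 25.9% higher and 26.6% lower in the WT label, and 20.5% and 22.6% in the KO label. The block within each label called 25.6% and 26.1%, then 20% and 22.3%. In the WT label 4 of 9 libraries correlated best with a library of their own number, and 8 of 9 did in the KO label. By title style, 8 of 9 WT libraries and 7 of 9 KO libraries correlated best with one of their own style. Whether a number pairs WT libraries is therefore not shown either way. Without the 10 most abundant genes in the denominator the mean shares were 1.73%, 1.79% and 2.47% on WT days 0, 1 and 3, and 1.82%, 1.53% and 2.32% in the KO label. Counting error limits the 9 members with under 1000 counts in all, such as Rpl23a.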
